A study of Mus musculus with 6 samples.

Results

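The genes described here are 9 transcripts by which microglia, the resident macrophages of the brain, are commonly recognised: C1qa, C1qb and C1qc, Csf1r, Cx3cr1, P2ry12, Tmem119, Trem2 and Tyrobp. They were chosen by name, and all 9 were found once each among the 32201 genes of the table and were among the 13153 genes tested. RNA sequencing was done on hippocampus of male C57BL/6N mice, an inbred strain, aged 8 weeks. The 3 baicalin libraries are from mice that received baicalin at 20 mg/kg under chronic unpredictable mild stress, a mouse model of depression in which mild stressors vary over time. The 3 saline libraries came from mice under the same stress given saline, so every animal was stressed, and the unstressed control group that the labels mention is not analysed here. Baicalin is a plant flavonoid found in Scutellaria baicalensis. Whether the libraries of a group are separate mice is not stated, and the p-values then cover only the spread among these 6 libraries, which may be technical.

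C1qa, C1qb and C1qc encode the chains of C1q, the recognition molecule that starts the classical complement cascade, and in brain microglia are its main source. C1q and the downstream component C3 tag synapses for removal by microglia. Homeostatic microglia carry CSF1R, the receptor for CSF1 and IL-34 on which their survival depends, and CX3CR1, the receptor for the neuronal chemokine fractalkine. They also carry P2RY12, an ADP receptor that guides their processes to injury, TMEM119, a transmembrane protein used to tell them from other macrophages, and TREM2, a lipid and lipoprotein receptor. TREM2 has no signalling tail of its own and signals through TYROBP, also called DAP12, an adaptor with an immunoreceptor tyrosine-based activation motif.

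Depth ran from 61303274 to 64983755 counts per baicalin library and from 65989141 to 67957752 counts per saline library. On the first principal component of all tested genes (30.9% of variance) baicalin libraries 2 and 3 stood at 13.9 and 26.2, apart from baicalin library 1 (-8.72) and the saline libraries (-12.4 to -7.39). The 9 genes together held 0.0257 to 0.0300% of counts in baicalin libraries and 0.0266 to 0.0286% in saline libraries. Hippocampal neuron markers were present in every library, and their 6 genes summed to 203 to 255 FPKM (fragments scaled to gene length and library depth) in baicalin libraries and 260 to 284 FPKM in saline libraries. The part of this difference in the values of the 9 genes was not tested. In bulk tissue, fewer cells of a type and less RNA per cell cannot be told apart.

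None of the 9 genes was called different between baicalin and saline. In edgeR's quasi-likelihood test, adjusted by Benjamini-Hochberg over all genes, 0 of 9 passed the 0.05 threshold, where 0.0456% of all genes tested did (6 of 13153). At an unadjusted p under 0.05 the count was also 0 of 9 in edgeR and in DESeq2. Of all genes tested 11.8% lay under it in edgeR, and the share in DESeq2 is not given here. Limma on log2(FPKM + 1) put 1 of 9, C1qb, under an unadjusted 0.05, where 11.7% of all genes tested lay in limma, and 0 past the adjusted threshold. Their log2 changes (baicalin minus saline) ran from -0.25 to 0.23, with a median of 0.051 against -0.00063 over all genes tested. The median was -0.022 without baicalin library 3 and -0.032 with counts scaled as TPM, which moved the median of all genes to -0.078. Of the 9 genes, 6 had an absolute log2 change no larger than 0.096, the median size over all genes tested.

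**Figure D1:**
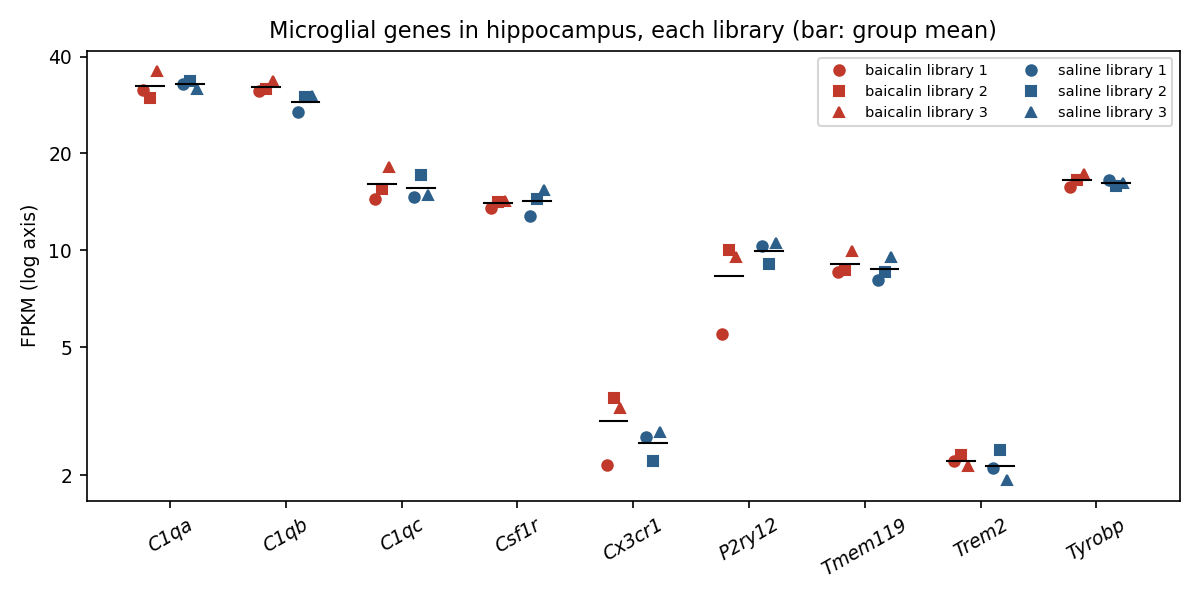
FPKM (log axis) of the 9 genes in each baicalin library (red, left of each pair) and saline library (blue, right), with bars at the group means. The groups interleave for every gene but C1qb, and baicalin library 1 stands low for P2ry12 at 5.49 FPKM.

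C1qa and C1qb were the most abundant of the set in FPKM. C1qa, which encodes the A chain, averaged 32.6 FPKM over the 6 libraries and C1qb, which encodes the B chain, 30.6 FPKM. Both lay above all other members in every library, and C1qa exceeded C1qb in 5 of 6 libraries, with overlapping ranges. Tyrobp followed at 16.4 FPKM, C1qc, which encodes the C chain, at 15.8 and Csf1r at 14.1, and the ranges of neighbours in this order overlapped. P2ry12 at 9.16 and Tmem119 at 8.90 FPKM also overlapped, below all values of Csf1r. Cx3cr1 at 2.74 and Trem2 at 2.18 FPKM were lowest and overlapped each other.

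The length used by the authors decides part of that order. The length implied by the ratio of counts to FPKM was 4949 bases for Trem2, close to the 4946 bases covered by all its annotated exons in GENCODE release M21. The longest principal transcript of Trem2 in that annotation has 1088 bases. Counts set over the principal transcript put Trem2 at 9.92 on the FPKM scale, 4.55 times its deposited level, between P2ry12 (9.96) and Tmem119 (9.19) with overlapping ranges. C1qc moved in the same way: 1930 bases were implied, 1203 are in the principal transcript, and its level became 25.4. On that scale C1qa (32.6) and C1qb (30.6) kept their levels, C1qc stood next, and its range overlapped that of C1qb. The C1q molecule holds its A, B and C chains in equal number. Setting all counts over the principal transcript takes each as coming from it, and the share that did is not known. Levels on that scale are too high where counts came from other exon bases. This choice of length was made after the data were examined. It scales all 6 libraries alike and so touches no comparison between baicalin and saline.

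The 3 C1q genes lie side by side on the minus strand of chromosome 4 (mm10): C1qb at 136880129 to 136886187, C1qc at 136889804 to 136893065 and C1qa at 136895917 to 136898803. C1qa, with 2300 to 2646 counts per library, had 31.5, 29.8 and 36.0 FPKM in baicalin libraries 1 to 3, against 33.0, 33.6 and 31.7 FPKM in saline libraries 1 to 3. The saline values lay inside the baicalin range. The log2 change of C1qa was -0.0059 ± 0.088 (SE), with a 95% interval of 0.861- to 1.15-fold (adjusted p = 0.982 in edgeR).

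C1qb had 31.2, 31.7 and 33.7 FPKM in baicalin libraries, against 26.9, 29.95 and 30.1 FPKM in saline libraries. All 3 baicalin libraries lay above all 3 saline libraries, the lowest being saline library 1. C1qb averaged 40.5 ± 2.05 CPM (counts scaled by TMM to library size) in baicalin libraries and 36.3 ± 2.31 CPM in saline libraries (SD, n = 3 each). Its log2 change was 0.16 ± 0.072 (SE), a ratio of 1.12 with a 95% interval of 0.990 to 1.26, and it did not pass (adjusted p = 0.446 in edgeR, unadjusted p = 0.0666). C1qb was the only member whose groups did not overlap, 1 of 9. Of all genes tested 19.4% were parted in that way in either direction, 9.93% with baicalin higher. Its log2 change was 0.11 without saline library 1 and 0.078 with TPM scaling.

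C1qc had 14.4, 15.5 and 18.2 FPKM in baicalin libraries, against 14.6, 17.2 and 14.9 FPKM in saline libraries. Baicalin library 3 was the highest and baicalin library 1 the lowest of the 6. Its log2 change was 0.051 ± 0.11 (SE; adjusted p = 0.873 in edgeR), -0.060 without baicalin library 3 and -0.032 with TPM scaling. The 95% interval of C1qc was 0.858- to 1.252-fold.

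Promoter sequences of C1qb and C1qc are printed because these neighbours differed in whether the groups overlapped, and those of P2ry12 and Cx3cr1 because these genes varied most among the libraries. Each is a window of 300 bases that spans the RefSeq start on GRCm38.p6, 5′ to 3′ on the gene's strand. The capitals mark GAGGAA, the PU box bound by the macrophage factor PU.1, or its reverse complement TTCCTC. The C1qb window is chr4:136886151-136886450, that of C1qc chr4:136892865-136893164, that of P2ry12 chr3:59262936-59263235 and that of Cx3cr1 chr9:120068247-120068546, all on the minus strand.
C1qb: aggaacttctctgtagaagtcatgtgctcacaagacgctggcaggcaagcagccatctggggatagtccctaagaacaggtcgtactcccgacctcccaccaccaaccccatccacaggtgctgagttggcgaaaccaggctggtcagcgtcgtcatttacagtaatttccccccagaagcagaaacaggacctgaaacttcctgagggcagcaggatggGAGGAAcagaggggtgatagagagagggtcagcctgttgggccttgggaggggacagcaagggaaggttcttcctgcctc
C1qc: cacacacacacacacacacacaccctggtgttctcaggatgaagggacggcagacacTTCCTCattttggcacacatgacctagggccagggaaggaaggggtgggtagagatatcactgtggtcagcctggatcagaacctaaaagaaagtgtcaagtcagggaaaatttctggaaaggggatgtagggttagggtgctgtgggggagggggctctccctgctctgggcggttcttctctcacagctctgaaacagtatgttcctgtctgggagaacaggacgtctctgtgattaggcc
P2ry12: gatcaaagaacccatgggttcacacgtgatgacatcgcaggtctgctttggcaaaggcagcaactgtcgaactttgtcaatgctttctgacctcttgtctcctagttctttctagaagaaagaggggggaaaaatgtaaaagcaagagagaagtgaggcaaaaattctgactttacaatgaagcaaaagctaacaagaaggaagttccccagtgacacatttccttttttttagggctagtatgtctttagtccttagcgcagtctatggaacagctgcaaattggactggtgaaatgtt
Cx3cr1: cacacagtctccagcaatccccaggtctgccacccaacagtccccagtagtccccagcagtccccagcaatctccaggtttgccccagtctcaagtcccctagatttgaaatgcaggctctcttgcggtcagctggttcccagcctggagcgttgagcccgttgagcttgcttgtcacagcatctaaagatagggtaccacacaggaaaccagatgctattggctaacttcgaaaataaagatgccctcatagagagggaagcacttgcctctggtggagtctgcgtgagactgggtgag
The table of promoters held 5 of the 9 genes, and 3 of these 5 (C1qb, C1qc and Trem2) carried the 6 letters on either strand, with 1 match each. Of all 32851 promoter windows in the table, 28.3% carried them. A match is a description of these letters and not a binding site, and the windows of P2ry12 and Cx3cr1 hold no match within these 300 bases. The P2ry12 window lies wholly upstream of the deposited span of P2ry12, whose 5′ end on the minus strand is at 59262871.

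P2ry12 and Cx3cr1 had the widest spread of the set. P2ry12 (chromosome 3, 59216272 to 59262871) had 5.49, 10.02 and 9.52 FPKM in baicalin libraries, against 10.3, 9.07 and 10.5 FPKM in saline libraries. Baicalin library 1, with 1030 counts, was the low one, and the other 5 libraries held 1700 to 2078 counts. The counting error at the mean count of P2ry12 is 2.40%, while its coefficient of variation over the 6 libraries was 20.5% in FPKM. Only 5.28% of genes tested had a library that deviated as far from their own mean as the 0.69 (log2) by which baicalin library 1 lay below that of P2ry12. Med12l, the gene on the opposite strand in which P2ry12 is nested, shares 9 exon bases with it. Med12l had 2.85, 3.14 and 2.57 FPKM in baicalin libraries, against 2.92, 2.95 and 3.30 FPKM in saline libraries. In Med12l, baicalin library 1 lay between the other baicalin libraries and below all saline libraries. The log2 change of P2ry12 was -0.25 ± 0.22 (SE; adjusted p = 0.666 in edgeR), with an interval of 0.584- to 1.21-fold, and -0.026 without baicalin library 1.

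Cx3cr1 (chromosome 9, 119901616 to 120068296) had 2.15, 3.48 and 3.23 FPKM in baicalin libraries, against 2.63, 2.22 and 2.72 FPKM in saline libraries. Baicalin libraries 2 and 3 were the highest and baicalin library 1 the lowest of the 6. Its log2 change was 0.23 ± 0.19 (SE; adjusted p = 0.642 in edgeR), with an interval of 0.858- to 1.61-fold. Without baicalin library 1 the log2 change was 0.42 (unadjusted p = 0.0122, adjusted p = 0.282 in edgeR), and without baicalin library 2 it was 0.11. The deposited span of Cx3cr1 differs from that of its annotation and also covers other genes, among them Wdr48, Gorasp1 and Csrnp1. These share 0 exon bases with it. Gm33858, on the opposite strand, shares 78 of the 4505 exon bases of Cx3cr1 and averaged 0.249 FPKM. The length implied by counts and FPKM was also 4505 bases.

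The ratio of Cx3cr1 to P2ry12 FPKM was 0.391, 0.347 and 0.340 in baicalin libraries, against 0.255, 0.244 and 0.259 in saline libraries. Both genes were low in baicalin library 1, which lies with the other baicalin libraries in this ratio. It was 1 of 3 among the 36 ratios between members whose groups did not overlap, with C1qb over Csf1r and C1qb over Tyrobp, both higher with baicalin. Of all single genes tested 19.4% had groups apart. These ratios were looked at after the members' values were seen, and no test was made.

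Csf1r, on chromosome 18 (61105572 to 61132149), was the most deeply counted member at 4712 to 5809 counts per library. It had 13.5, 14.2 and 14.3 FPKM in baicalin libraries, against 12.8, 14.4 and 15.3 FPKM in saline libraries. The baicalin values lay inside the saline range. The log2 change was -0.013 ± 0.075 (SE; adjusted p = 0.955 in edgeR), with an interval of 0.875- to 1.12-fold. Of its annotated exon bases, 15.1% overlap Hmgxb3 on the opposite strand, and the sources used here do not say if counting was strand-specific. Hmgxb3 itself had a log2 change of -0.068.

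Tmem119 (chromosome 5, 113793729 to 113800516) had 8.54, 8.69 and 9.98 FPKM in baicalin libraries, against 8.09, 8.59 and 9.52 FPKM in saline libraries. Baicalin library 3 and saline library 3 were the highest of their groups, which overlapped. Its log2 change was 0.063 ± 0.10 (SE; adjusted p = 0.819 in edgeR), and -0.022 without baicalin library 3.

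Of the receptor and adaptor pair, Tyrobp varied least of all 9 genes and Trem2 more. Trem2 (chromosome 17, 48346401 to 48354147) had 2.22, 2.31 and 2.13 FPKM in baicalin libraries, against 2.10, 2.39 and 1.93 FPKM in saline libraries. Its baicalin values lay inside the saline range, with a log2 change of 0.058 ± 0.10 (SE; adjusted p = 0.840 in edgeR) and an interval of 0.880- to 1.23-fold. Tyrobp (chromosome 7, 30413760 to 30417582) had 15.7, 16.5 and 17.2 FPKM in baicalin libraries, against 16.5, 15.9 and 16.2 FPKM in saline libraries. Here the saline values lay inside the baicalin range. The log2 change of Tyrobp was 0.031 ± 0.077 (SE; adjusted p = 0.886 in edgeR), and its highest library exceeded its lowest by 1.09-fold in FPKM. In log2 CPM its range was 0.14, which 91.3% of genes tested reached or passed. The counting error of Tyrobp at its mean count is 3.51%, against a coefficient of variation of 3.27% over the 6 libraries.

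**Figure D2:**
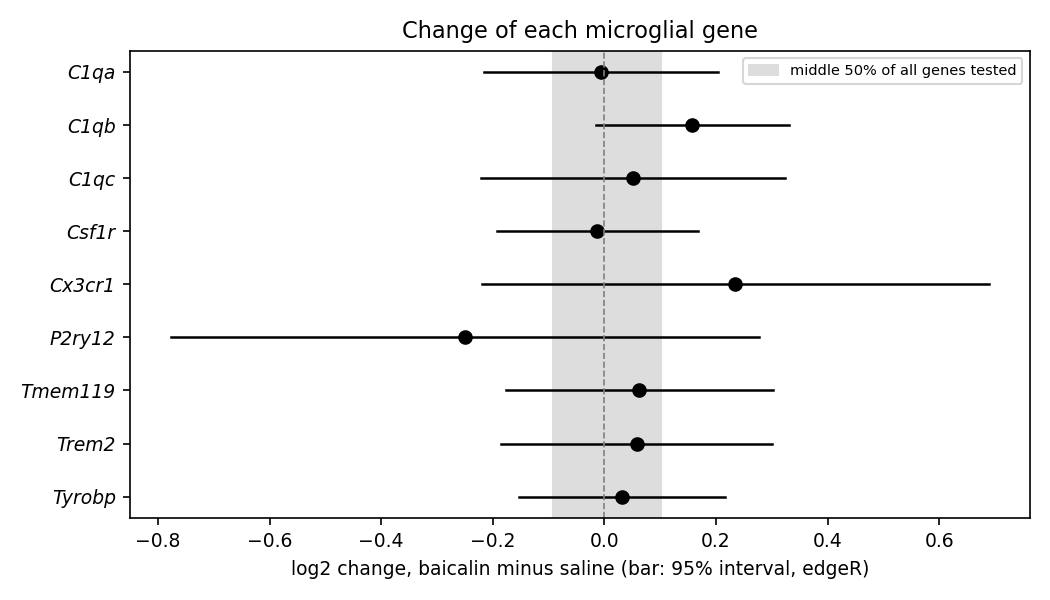
Log2 change (baicalin minus saline) of each gene with its 95% interval from edgeR, over a grey band that holds the middle 50% of all genes tested (-0.093 to 0.10). Every interval spans 0, and those of P2ry12 and Cx3cr1 are the widest.

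In baicalin library 1, 7 of 9 genes lay below their mean over the 6 libraries, and in baicalin library 3, 8 of 9 lay above it. The median deviation of the members in log2 CPM was -0.053, 0.0038 and 0.16 in baicalin libraries 1 to 3, against -0.056, 0.020 and -0.015 in saline libraries 1 to 3. Of the 36 pairs of members 26 were positively correlated over the 6 libraries in log2(FPKM + 1), with a median Pearson r of 0.30, where each pair shares library, depth and scaling. The highest was Cx3cr1 with Tyrobp (r = 0.82), followed by C1qb with Tmem119 and C1qa with C1qc (r = 0.73 each), and the lowest Tmem119 with Trem2 (r = -0.42). C1qa and C1qb, the most abundant chain genes, had r = 0.17, and Trem2 and Tyrobp, which encode partners, r = -0.29. Baicalin library 3 also had the highest mitochondrial share of counts, 8.69% against 7.71 to 7.74% in the other baicalin libraries and 7.18 to 7.82% in saline libraries, and its part in the C1qa and C1qc values was not tested.

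**Figure D3:**
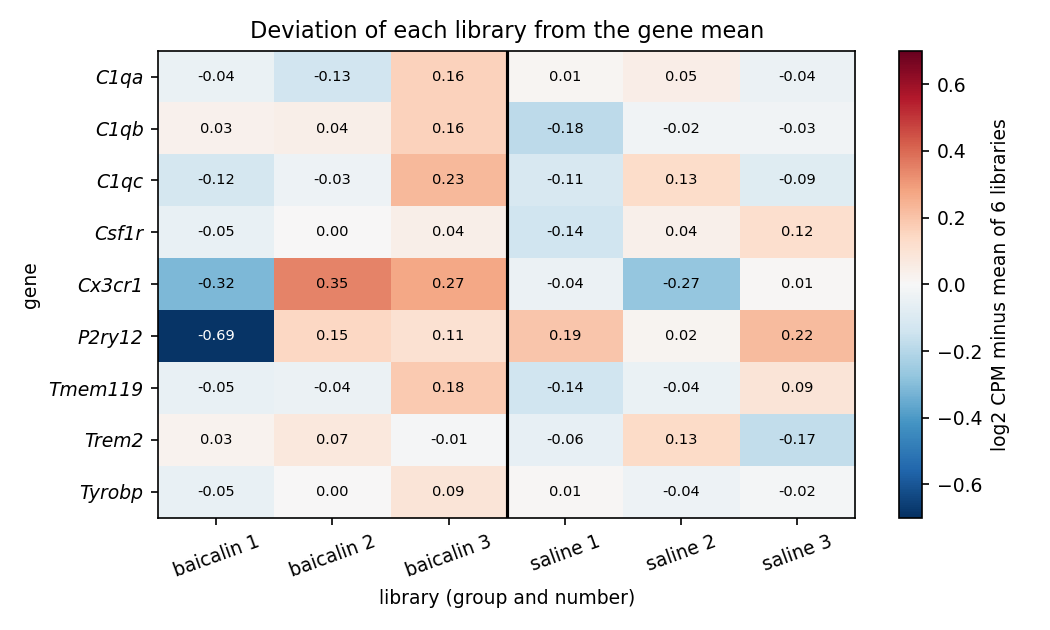
Deviation of each library (columns, baicalin left of saline) from the mean of the 6 libraries for each gene (rows), in log2 CPM. The lowest cell is P2ry12 in baicalin library 1 (-0.69), and the column of baicalin library 3 holds 8 positive cells.

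As levels, the summed C1q genes stood at 77.1, 77.0 and 87.9 FPKM in baicalin libraries, against 74.5, 80.8 and 76.7 FPKM in saline libraries. The other 6 members summed to 47.7, 55.2 and 56.3 FPKM in baicalin libraries, against 52.5, 52.6 and 56.3 FPKM in saline libraries. Their ratio, C1q over the other 6, was 1.52 ± 0.116 in baicalin libraries and 1.44 ± 0.0886 in saline libraries (SD, n = 3 each), a difference of 0.081 on the log2 scale between overlapping groups. Leaving out 1 library moved it between 0.037 (without baicalin library 1) and 0.14 (without baicalin library 2). As a description, the genes whose log2(FPKM + 1) ran most like the members' mean over the 6 libraries were Tmem135, Tex264, Ttc33, Ldb3 and Gm14703, with Pearson r of 0.981 to 0.996. Over so few libraries 55 genes had an r above 0.9, or 0.418% of the genes tested outside the members. Other microglial genes did not stand near the members' mean: the median r was -0.040 over 21 such genes and -0.064 over all genes tested.

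Of the ligands and signalling partners of these receptors, 11 of 16 were tested, 8 with a positive log2 change, and their median was 0.095. It was 0.017 with TPM scaling and -0.022 over all 16 with no filter on low values. None passed over all genes in edgeR, and 3 lay under an unadjusted p of 0.05: Apoe and Clu, higher with baicalin (6.34% of genes tested were so), and Adam10, lower (5.46%). Apoe, a lipoprotein bound by TREM2 and made largely by astrocytes, had 346, 367 and 375 FPKM in baicalin libraries, against 306, 294 and 306 FPKM in saline libraries. All 3 baicalin libraries lay above all saline libraries. Its log2 change was 0.27 ± 0.046 (SE; adjusted p = 0.213 in edgeR). DESeq2, which called 1.6% of genes tested (211), called Apoe (adjusted p = 0.00120) and no other gene of this list. Over the alternatives the log2 change of Apoe ran from 0.19 to 0.30.

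Clu, which encodes the apolipoprotein clusterin, another TREM2 ligand, had 183, 188 and 181 FPKM in baicalin libraries, against 175, 171 and 174 FPKM in saline libraries (log2 change 0.095 ± 0.033, SE; adjusted p = 0.391 in edgeR; 0.017 with TPM scaling). Adam10, which encodes a sheddase that releases TREM2 and fractalkine ectodomains, had 13.8, 12.9 and 13.1 FPKM in baicalin libraries, against 14.6, 14.8 and 15.7 FPKM in saline libraries (log2 change -0.17 ± 0.053, SE; adjusted p = 0.360 in edgeR). For both genes the groups did not overlap. Of the 11 tested, 3 had groups apart with baicalin higher (Apoe, Clu and Inpp5d), where 9.93% of all genes tested did. With baicalin lower 1 did (Adam10), where 9.52% of all genes tested did. Inpp5d, another signalling partner on the list, had a log2 change of 0.17 ± 0.084 (SE; adjusted p = 0.469 in edgeR).

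Cx3cl1, which encodes fractalkine, the ligand of CX3CR1, split the saline libraries. It had 113, 97.6 and 103 FPKM in baicalin libraries, against 118, 11.8 and 19.1 FPKM in saline libraries. Saline library 1 lay above all baicalin libraries, and saline libraries 2 and 3 (3517 and 5819 counts) far below them (28252 to 32579 counts). Only 0.426% of genes tested had as wide a range over the 6 libraries. The log2 change was 1.08 ± 0.81 (SE) and did not pass (adjusted p = 0.619 in edgeR). Without saline library 1 it was 2.76 and passed (adjusted p = 0.0405 in edgeR), and without saline library 2 it was 0.61 and did not (adjusted p = 0.799 in edgeR). Cx3cr1, its receptor, had 2.63 FPKM in saline library 1, between the 2.22 and 2.72 FPKM of saline libraries 2 and 3.

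The CSF1R ligands are Csf1 and Il34, and in forebrain Il34 is made mainly by neurons. Csf1 had 1.71, 4.22 and 3.59 FPKM in baicalin libraries, against 3.94, 3.57 and 3.94 FPKM in saline libraries. Baicalin library 1, the library low in P2ry12, was also the low one for Csf1. The log2 change of Csf1 was -0.26 ± 0.30 (SE; adjusted p = 0.753 in edgeR) and 0.039 without baicalin library 1. Il34 had 17.3, 14.0 and 14.8 FPKM in baicalin libraries, against 15.3, 21.6 and 17.1 FPKM in saline libraries, in overlapping groups (adjusted p = 0.582 in edgeR). Tgfb1 (0.774 to 0.944 FPKM with baicalin, 0.851 to 1.09 with saline), the kinase gene Syk (0.320 to 0.409 with baicalin, 0.330 to 0.419 with saline) and Hcst, which encodes the adaptor DAP10 (up to 0.185 with baicalin and 0.281 with saline), lay below the 1 FPKM filter.

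**Figure D4:**
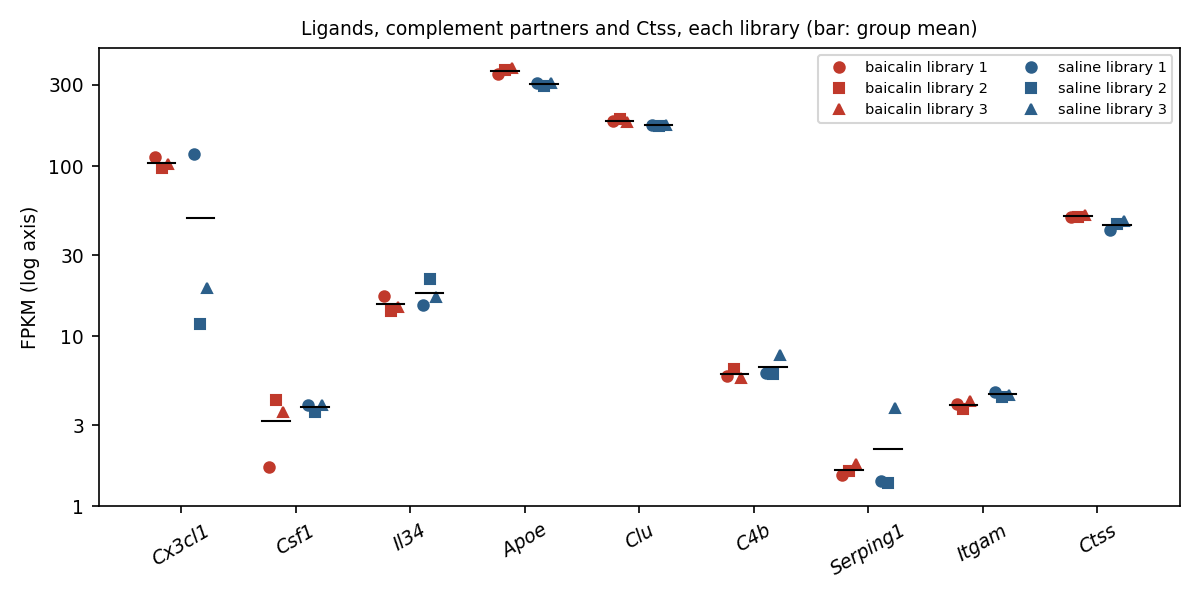
FPKM (log axis) of ligands (Cx3cl1, Csf1, Il34, Apoe, Clu), complement genes (C4b, Serping1, Itgam) and the microglial gene Ctss in each baicalin (red, left) and saline (blue, right) library, with bars at the group means. Saline libraries 2 and 3 are low for Cx3cl1, at 11.8 and 19.1 FPKM, and Apoe parts the groups.

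Most of the other complement genes listed were thinly expressed. Of 16 other complement components and receptors 4 were tested, and 12 lay below 1 FPKM, among them C1ra and C1s1, which encode the C1 proteases (means of 0.645 and 0.368 FPKM over the 6 libraries), and C3, the central component (0.133 FPKM). All 4 tested had negative log2 changes (median -0.12), none past the threshold in edgeR or DESeq2. Itgam, which encodes the CD11b chain of complement receptor 3, had 4.005, 3.72 and 4.16 FPKM in baicalin libraries, against 4.72, 4.38 and 4.54 FPKM in saline libraries, without overlap (log2 change -0.19 ± 0.075, SE; unadjusted p = 0.0399, adjusted p = 0.409 in edgeR). C4b, the substrate of the C1 complex, had 5.87, 6.40 and 5.67 FPKM in baicalin libraries, against 6.06, 5.97 and 7.72 FPKM in saline libraries (log2 change -0.13, adjusted p = 0.652 in edgeR; -0.0029 without saline library 3). Cfp, which encodes properdin, had a log2 change of -0.081.

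Among 22 complement regulators and C1q-binding proteins 18 were tested, 8 with a positive and 10 with a negative log2 change (median -0.029), and none passed in edgeR or DESeq2. Sez6, which encodes a neuronal protein that inhibits complement, had 16.2, 15.6 and 16.0 FPKM in baicalin libraries, against 19.2, 23.7 and 18.1 FPKM in saline libraries, without overlap (log2 change -0.34 ± 0.10, SE; adjusted p = 0.353 in edgeR). Without saline library 2 it was -0.22. Sez6 was the only 1 of the 18 under an unadjusted p of 0.05 in edgeR, where 11.8% of all genes tested lay. Csmd1, which encodes another neuronal complement inhibitor, was at -0.17 and Nptx2, which encodes a synaptic pentraxin, at -0.26, both in overlapping groups. Serping1, which encodes the C1 inhibitor, had 1.53, 1.62 and 1.78 FPKM in baicalin libraries, against 1.40, 1.36 and 3.76 FPKM in saline libraries. Its log2 change of -0.39 ± 0.40 (SE; adjusted p = 0.712 in edgeR) was 0.26 without saline library 3.

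Of 25 other microglial genes 21 were tested, 11 with a positive and 10 with a negative log2 change, and the median was 0.0054. None passed in edgeR or DESeq2, and 2 were under an unadjusted p of 0.05 in each. Of all genes tested 11.8% lay under it in edgeR, and the share in DESeq2 is not given here. The 2 in edgeR were Itgam, already given and lower with baicalin, and Ctss, which was higher. Ctss, which encodes the lysosomal protease cathepsin S, had 50.1, 50.3 and 51.6 FPKM in baicalin libraries, against 42.4, 45.5 and 47.3 FPKM in saline libraries (log2 change 0.18 ± 0.058, SE; adjusted p = 0.369 in edgeR; 0.098 with TPM scaling). The groups did not overlap. Spi1, which encodes PU.1, lay below the filter at 0.772 to 1.03 FPKM with baicalin and 0.855 to 0.967 FPKM with saline.

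Genes of the disease-associated microglial state, which depends on TREM2 in mouse models, had a median log2 change of 0.0087 over 12 tested of 18, with 6 positive and 6 negative. These are values of bulk tissue, and the median is not one of microglia alone. With baicalin higher, 3 of the 12 (Apoe, Ctsl and Fth1) had groups apart, where 9.93% of all genes tested did. With baicalin lower 0 did, where 9.52% of all genes tested did. Beside Apoe, already given, Ctsl (cathepsin L) had 8.58, 9.21 and 9.33 FPKM in baicalin libraries, against 7.96, 8.02 and 7.68 FPKM in saline libraries, without overlap (log2 change 0.20 ± 0.057, SE; adjusted p = 0.335 in edgeR). Fth1, which encodes ferritin heavy chain, was at 0.11 ± 0.051 (SE; adjusted p = 0.440 in edgeR). With TPM scaling Ctsl was at 0.13 and Fth1 at 0.035. Spp1, which encodes osteopontin, had the largest log2 change of the list in size. It had 7.76, 4.55 and 4.33 FPKM in baicalin libraries, against 4.38, 8.54 and 13.1 FPKM in saline libraries, in overlapping groups (log2 change -0.64 ± 0.41, SE; adjusted p = 0.572 in edgeR). Of the 6 genes of the list below the 1 FPKM filter, Cst7 averaged 0.0934, Clec7a 0.0928 and Itgax 0.0428 FPKM. Of 12 inflammatory activation genes only Ccl3 and Cd14 were tested, with log2 changes of -0.69 ± 0.45 and -0.15 ± 0.24 (SE) and adjusted p of 0.578 and 0.814 in edgeR. Il1b averaged 0.0310 and Tnf 0.142 FPKM. With TPM scaling the median of the other microglial genes was -0.071 and that of the disease-associated genes -0.068, against -0.078 over all genes tested.

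All 10 markers of border-associated macrophages lay below 1 FPKM, and they summed to 1.28 to 1.88 FPKM in baicalin libraries and 1.41 to 3.58 FPKM in saline libraries, the highest in saline library 3. None of them was at 0 in all libraries. Of 12 monocyte and neutrophil markers 3 were tested, Lyz2 (log2 change -0.61), S100a4 (0.21) and S100a9 (-0.67), in overlapping groups. Without saline library 3 Lyz2 was at -0.32, and the median of the 3 was 0.17, against -0.61 with all libraries. The 12 markers summed to 13.7 to 15.5 FPKM in baicalin libraries and 12.999 to 26.2 FPKM in saline libraries, again highest in saline library 3, and the monocyte receptor Ccr2 averaged 0.0185 FPKM. The 6 lymphocyte markers summed to 0.573 to 0.618 FPKM in baicalin libraries and 0.449 to 1.33 FPKM in saline libraries. Median log2 changes were -0.025 for 6 astrocyte, 0.094 for 6 oligodendrocyte, -0.15 for 5 endothelial, 0.0061 for 7 neuron and -0.28 for 6 hippocampal neuron markers. On leaving out 1 library they ran from -0.055 to 0.011 for astrocyte, -0.016 to 0.15 for oligodendrocyte, -0.19 to -0.069 for endothelial, -0.027 to 0.013 for neuron and -0.35 to -0.17 for hippocampal neuron markers. Of the hippocampal neuron markers 4 of 6 lay lower with baicalin without overlap and 3 were lower at an unadjusted p under 0.05 in edgeR, where 9.52% and 5.46% of all genes tested were so. Among these lists edgeR called 0 genes, and DESeq2 called Zbtb20 (adjusted p = 0.0400 in DESeq2). Without saline library 3 the median of the 9 members was 0.031.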

How the data were processed

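RNA sequencing of hippocampus was analysed in 3 baicalin and 3 saline libraries. The deposited table gives, per the file headers, a whole-number count and an FPKM value for each gene and library. The authors' counts are unnormalized and their column totals differ. The authors' FPKM values scale fragments to gene length and library. Within genes the 2 units were proportional, with a standard deviation of 0.0011 (log2) over 12236 genes. Per the submitters' processing notes the tools included HISAT2 and StringTie, and the build was mm10, and the sources used here do not give their roles, the counting options or strand. Another 12 columns of per-sample values carry names of no labelled sample and stayed out.

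The test took genes whose mean reached 1 FPKM. They were fitted with edgeR 4.0.16 under R 4.3.3, TMM scaling and a treatment term, and adjusted over 13153 genes at 0.05. Each SE was taken from the log2 change and its F statistic. The procedure was tested on simulated counts. Alternatives used DESeq2 1.42.0, limma 3.58.1 (pseudocounts 1 and 0.1), other scalings, filters and a replicate block, and left out each library. Sequences and coordinates of promoters are from RefSeq on GRCm38.p6.

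The rule for named genes took the 9 members, direct ligands and partners of them, up to 3 genes per other list with the smallest unadjusted p, and the 5 genes most correlated with the members' mean. Other genes named (among them Cst7, Clec7a, Itgax, Il1b, Tnf, Ccr2, Dcn, Olfml3 and Siglech) were chosen after their values were seen. Some results are not reported here. The members and lists were chosen with earlier results of these data known.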

Additional observations from a re-analysis of the deposited data

How the results depend on the processing

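No member passed the threshold in any of the 16 alternatives, and the smallest adjusted p of a member in them was 0.282 (Cx3cr1 without baicalin library 1, in edgeR). C1qb (0.078 to 0.19), Cx3cr1 (0.11 to 0.42) and P2ry12 (-0.39 to -0.026) kept their sign in every alternative that tested them. With counts scaled as TPM, chosen after the data were examined, 4 members turned negative: C1qc (-0.032), Tmem119 (-0.018), Trem2 (-0.019) and Tyrobp (-0.048). That scaling moved the median over all genes to -0.078, so each of these 4 lay above it. Leaving out 1 library moved C1qa between -0.097 and 0.058, C1qc between -0.060 and 0.13, Csf1r between -0.083 and 0.046, Tmem119 between -0.022 and 0.13, Trem2 between -0.012 and 0.15 and Tyrobp between -0.010 and 0.060. The cause was not tested. The number of genes called was 211 with DESeq2 and 0 with a replicate block, and 2 to 39 on leaving out 1 library (39 when baicalin library 1 was left out, 2 for baicalin library 3, 10 for saline library 2 and 14 for saline library 3). Deviations of same-numbered libraries correlated at 0.091, 0.052 and -0.024, against -0.098 to 0.055 for the other pairs. With 3 libraries per group these values cannot show whether the replicate numbers pair the libraries. The block changed no call of a member, and their median log2 change under it was 0.048. The filter of 5 FPKM did not test Trem2 or Cx3cr1.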

Other observations

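A pair of further microglial genes, singled out after their values were seen, split the libraries in ways the treatment does not. Olfml3, which encodes a secreted olfactomedin-like protein, had 2.93, 0.729 and 0.879 FPKM in baicalin libraries 1 to 3, against 0.724, 0.9001 and 3.23 FPKM in saline libraries 1 to 3, and 1.45% of genes tested had as wide a range. Siglech, which encodes a sialic acid-binding lectin, had 2.79, 1.44 and 1.58 FPKM in baicalin libraries, against 1.42, 1.48 and 1.45 FPKM in saline libraries. Baicalin library 1, low in P2ry12 and Csf1, was the high one for Siglech.

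Saline library 3, highest for Serping1, was also highest for the meningeal fibroblast gene Dcn, which had 2.41, 2.29 and 2.77 FPKM in baicalin libraries, against 2.84, 2.85 and 4.63 FPKM in saline libraries. The part of meningeal tissue in the Serping1 values was not tested.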
